A study of Mus musculus with 20 samples.

Results

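The genes described here are 9 mast cell genes, the granule proteases Tpsb2, Tpsab1, Cma1, Mcpt4 and Cpa3, the IgE receptor genes Fcer1a and Ms4a2, the growth factor receptor gene Kit and the histamine enzyme gene Hdc. They were chosen by gene symbol with earlier results of these tumours known, and all 9 were found among the 22417 genes of the deposited RPKM table and the 55406 genes of the count table. RNA was measured by sequencing in 20 tumours from 20 mice. The tumours grew in C57/BL6 female mice from luciferase-expressing ID8 cells placed in the peritoneal cavity. ID8 is a cancer line derived from mouse ovarian surface epithelium, and per the labels it is Trp53-/-Brca1-/- in every group, controls included.

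The 6 groups were PARPi+ICB+anti-VEGFA (n = 4, the triple combination), PARPi+ICB (n = 3), PARPi+anti-VEGFA (n = 4), PARPi (n = 3), ICB (n = 3) and untreated control tumours (n = 3). PARPi was olaparib, an inhibitor of the DNA repair enzyme PARP, given orally at 40 mg/kg per day. ICB, immune checkpoint blockade, joined 200 µg anti-PD-L1 to 100 µg anti-CTLA-4, and anti-VEGFA, an antibody against a blood vessel growth factor, was 20 µg. Antibodies were given intraperitoneally. The labels give neither the harvest day nor the time on treatment, and controls are labelled untreated, with no vehicle or control antibody named. All tumours came from 1 cell line, so the deletions cannot be compared between groups.

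Mast cells are tissue-resident immune cells that store histamine, proteases and proteoglycan in granules and release them on activation. Their survival depends on the receptor Kit and its ligand, stem cell factor, and IgE bound to the high-affinity receptor triggers degranulation. Mouse mast cells of connective tissue and serosal surfaces are known for tryptases, the chymases Cma1 and Mcpt4 and carboxypeptidase A3, and those of mucosa for the chymases Mcpt1 and Mcpt2.

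The proteases lie in clusters in the mouse genome (GRCm38). Tpsb2, the tryptase mMCP-6, lies on chromosome 17 from 25366305 to 25369098 on the plus strand, and Tpsab1, the tryptase mMCP-7, lies beside it from 25343245 to 25345562 on the minus strand. Cma1, the chymase mMCP-5, lies on chromosome 14 from 55941451 to 55944675, and Mcpt4, the chymase mMCP-4, on the same chromosome from 56059629 to 56062313, both on the minus strand. Cpa3, mast cell carboxypeptidase A, lies on chromosome 3 from 20215620 to 20242181, with the microRNA gene Mir7007 annotated inside it on the same strand. Kit lies on chromosome 5 from 75574916 to 75656722, Fcer1a on chromosome 1 from 173221284 to 173227214, Ms4a2 on chromosome 19 from 11615523 to 11623719 and Hdc on chromosome 2 from 126593667 to 126619299. Of the 50-base stretches in the longest coding transcript, 5.48% of those of Mcpt4, 5.38% of Cma1 and 2.69% of Ms4a2 also occur in a transcript of another gene, and 0 of those of the other members, Tpsb2 and Tpsab1 included. Reads over the shared stretches, mainly with Cma2, Mcpt9, Gm48934 and Ms4a4b, could be split or dropped by the counting.

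Promoter windows are printed for Cma1, Mcpt4, Cpa3 and Ms4a2, whose means were highest in both groups that combined PARPi with ICB. That of Kit, whose means were lowest there, is printed too. Fcer1a and Hdc also had their highest means there, and their windows are described below but not printed. Each window is RefSeq sequence of GRCm38.p6, read 5′ to 3′ on the gene's strand, from 250 bases before the start of the gene to its first 50 bases. Capitals mark, on either strand, the letters GATA with A or T before them and A or G after them, the words bound by GATA factors, which include Gata1 and Gata2 of the mast cell lineage. The windows are Cma1 at chr14:55944626-55944925 (minus strand), Mcpt4 at chr14:56062261-56062560 (minus), Cpa3 at chr3:20242132-20242431 (minus), Ms4a2 at chr19:11623670-11623969 (minus) and Kit at chr5:75574737-75575036 (plus).
Cma1: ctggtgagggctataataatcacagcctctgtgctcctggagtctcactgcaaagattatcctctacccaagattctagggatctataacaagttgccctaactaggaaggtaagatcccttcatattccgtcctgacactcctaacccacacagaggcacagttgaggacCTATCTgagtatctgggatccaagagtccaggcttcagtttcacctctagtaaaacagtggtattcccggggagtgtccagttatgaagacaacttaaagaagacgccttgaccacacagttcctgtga
Mcpt4: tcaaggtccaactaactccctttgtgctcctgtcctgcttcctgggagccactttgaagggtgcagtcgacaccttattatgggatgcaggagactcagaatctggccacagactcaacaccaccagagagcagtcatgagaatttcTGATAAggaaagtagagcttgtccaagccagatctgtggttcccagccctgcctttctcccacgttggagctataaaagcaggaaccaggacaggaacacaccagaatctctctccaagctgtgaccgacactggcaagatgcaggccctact
Cpa3: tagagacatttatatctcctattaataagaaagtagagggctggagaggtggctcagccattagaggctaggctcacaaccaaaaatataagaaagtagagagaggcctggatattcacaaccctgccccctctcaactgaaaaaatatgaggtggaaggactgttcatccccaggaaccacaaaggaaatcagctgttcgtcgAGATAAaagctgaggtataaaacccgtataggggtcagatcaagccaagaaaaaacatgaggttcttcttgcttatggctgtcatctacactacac
Ms4a2: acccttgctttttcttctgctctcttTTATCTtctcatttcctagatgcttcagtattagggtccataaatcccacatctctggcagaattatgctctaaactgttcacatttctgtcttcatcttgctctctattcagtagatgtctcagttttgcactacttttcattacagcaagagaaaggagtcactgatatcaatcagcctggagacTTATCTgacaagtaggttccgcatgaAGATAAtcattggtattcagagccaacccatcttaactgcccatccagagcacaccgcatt
Kit: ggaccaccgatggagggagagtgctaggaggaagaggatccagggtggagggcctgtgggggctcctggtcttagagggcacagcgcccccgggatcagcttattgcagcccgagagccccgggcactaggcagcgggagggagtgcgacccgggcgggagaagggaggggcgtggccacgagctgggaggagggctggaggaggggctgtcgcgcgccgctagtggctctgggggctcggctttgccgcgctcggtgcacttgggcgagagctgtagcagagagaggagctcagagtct
Of the 9 members, 7 have an entry in the promoter table used, and Tpsb2 and Tpsab1 were not among them. A GATA word occurred in the windows of 6 of these 7, and in 29.8% of all 32851 windows of this length in the table. The first base of the word stood at position -79 relative to the gene start in Cma1, -103 in Mcpt4, -46 in Cpa3, -92 in Fcer1a and -221 in Hdc. Ms4a2 held 3 words, at -224, -37 and -11. Kit held none, and its window had 69.0% G and C, against 41 to 51.7% in the other members and a median of 52.7% over all windows. The E-box words CACGTG and CATGTG, bound by the Mitf family, occurred on either strand in the window of Fcer1a alone among the members, at -208, and in 20.4% of all windows, and they share no position with a GATA word there. These matches are letters in a window and were not tested as binding sites or against the direction of change.

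Library totals ran from 26.9 to 34.7 M reads in genes, and 3 counts, the limit that a count of 0 allows, equal 0.0864 to 0.113 CPM depending on the library, where CPM is a gene's count scaled to a common library size. All 9 members passed the filter on low counts, as did 18144 genes in all. The genes Krt7, Krt8, Krt18, Krt19, Wt1 and Msln of the ID8 epithelium summed to 1840 to 2080 CPM in the triple combination, 1830 to 2060 in PARPi+ICB, 1770 to 2000 in PARPi+anti-VEGFA, 2050 to 2090 in PARPi and 2080 to 2260 in ICB, against 2170 to 2560 CPM in control. Of these 6 genes, 4 passed lower than control in each PARPi combination, 0 in PARPi and 1 in ICB. Acinar RNA of the pancreas set 4 libraries apart: the 8 acinar genes summed to 4870 CPM in replicate 2 of the triple combination, up to 935 CPM in replicates 1 and 4 of PARPi+anti-VEGFA and 186 CPM in replicate 3 of ICB, against 7.73 to 26.9 CPM in the other libraries. Values without these 4 libraries are given where a call was lost without them. In bulk tissue, more mast cells and more RNA per mast cell cannot be told apart.

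Set per kilobase of exon, the members fell into a high and a low set. Over the 20 libraries, Tpsb2 averaged 7.13 CPM per exon kb, Cpa3 6.65, Cma1 6.47, Kit 5.20, Hdc 4.28 and Mcpt4 3.07. The low set was Fcer1a at 0.895, Tpsab1 at 0.560 and Ms4a2 at 0.346 CPM per exon kb. C57BL/6 mice are known to carry a splice-site mutation in Tpsab1 that removes the mMCP-7 protein, while Tpsb2 is intact in them. The lengths are all exon bases in GENCODE M21, and per kilobase of the longest coding transcript Hdc at 11.4 and Kit at 8.85 stood above Tpsb2 at 8.81 and Cpa3 at 6.97, so the order among the 5 highest depends on the length used. All further member values are CPM, which compare a gene between tumours and not 1 gene with another.

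Tpsb2, the main mast cell tryptase of this strain, was highest where PARPi and ICB were given together. It measured 17.6, 36.2, 16.1 and 11.1 CPM in the triple combination and 17.0, 18 and 12.7 CPM in PARPi+ICB. It measured 6.36, 5.24, 7.40 and 4.61 CPM in PARPi+anti-VEGFA, 7.72, 7.42 and 6.23 CPM in PARPi and 8.30, 9.27 and 12.1 CPM in ICB, against 6.17, 9.37 and 8.43 CPM in control tumours. Every library of both groups that combined PARPi with ICB lay above every control library, while PARPi+anti-VEGFA, PARPi and ICB each overlapped control. The log2 fold change over control was 1.34 ± 0.30 (SE) in the triple combination and 0.99 ± 0.31 in PARPi+ICB, and -0.44 ± 0.29 in PARPi+anti-VEGFA, -0.16 ± 0.31 in PARPi and 0.31 ± 0.31 in ICB.

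The other tryptase gene, Tpsab1, was scarcer and more scattered. Counts per library ran from 25 to 73 in the triple combination, 27 to 60 in PARPi+ICB, 7 to 25 in PARPi+anti-VEGFA, 15 to 36 in PARPi and 31 to 61 in ICB, against 25 to 37 in control. Means were 1.83 ± 0.723 CPM (SD, n = 4) in the triple combination, 1.42 ± 0.487 (n = 3) in PARPi+ICB, 0.490 ± 0.306 (n = 4) in PARPi+anti-VEGFA, 0.792 ± 0.283 (n = 3) in PARPi and 1.47 ± 0.458 (n = 3) in ICB, against 1.04 ± 0.226 (n = 3) in control. Every treatment overlapped control. PARPi+anti-VEGFA held the lowest library, replicate 2 at 0.206 CPM, and its log2 fold change over control was -1.10 ± 0.45.

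Cpa3, the exopeptidase stored with the chymases, followed the same order of groups as Tpsb2 at the upper end. It measured 13.8, 26.4, 15.2 and 9.49 CPM in the triple combination and 13.9, 16.7 and 12.3 CPM in PARPi+ICB. It measured 7.51, 7.30, 7.99 and 5.37 CPM in PARPi+anti-VEGFA, 6.28, 6.42 and 7.53 CPM in PARPi and 5.72, 6.81 and 11.5 CPM in ICB, against 4.69, 8.33 and 8.47 CPM in control. Both PARPi+ICB groups lay wholly above control and the other treatments overlapped it, with ICB replicate 3 the highest of the lower 4 groups. The log2 fold change over control was 1.18 ± 0.30 in the triple combination and 1.00 ± 0.31 in PARPi+ICB, and between -0.09 and 0.17 in the other treatments.

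Of the chymases, Cma1 acts as an elastase in mouse and Mcpt4 is the main chymotrypsin-like enzyme of connective tissue mast cells. Both were again highest in the triple combination. Cma1 measured 11.3, 18.8, 10.8 and 6.76 CPM in the triple combination, 8.90, 8.68 and 7.31 CPM in PARPi+ICB, 4.15, 4.80, 6.49 and 5.18 CPM in PARPi+anti-VEGFA, 5.90, 5.59 and 4.51 CPM in PARPi and 4.68, 3.19 and 8.49 CPM in ICB, against 3.84, 5.68 and 6.05 CPM in control. Both PARPi+ICB groups lay above every control library for Cma1. Mcpt4 measured 6.13, 11.1, 5.18 and 2.07 CPM in the triple combination and 4.04, 5.84 and 2.91 CPM in PARPi+ICB, and ranged from 1.89 to 2.66 in PARPi+anti-VEGFA, 2.00 to 3.28 in PARPi and 1.46 to 3.32 in ICB, against 1.20, 2.62 and 3.84 CPM in control. For Mcpt4 both groups overlapped control, because replicate 4 of the triple combination, replicate 3 of PARPi+ICB and replicate 3 of control crossed. Log2 fold changes over control were 1.20 ± 0.31 for Cma1 and 1.26 ± 0.45 for Mcpt4 in the triple combination, and 0.68 ± 0.33 and 0.74 ± 0.47 in PARPi+ICB. In PARPi+anti-VEGFA, PARPi and ICB the log2 fold changes of both chymases over control lay between -0.20 and 0.07.

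The receptor for IgE is built from the alpha chain Fcer1a, which binds IgE, the beta chain Ms4a2, which amplifies its signal, and the shared gamma chain Fcer1g. Ms4a2 measured 1.78, 1.32, 1.94 and 1.03 CPM in the triple combination and 1.28, 1.88 and 1.19 CPM in PARPi+ICB. It measured 0.737, 0.559, 0.401 and 0.831 CPM in PARPi+anti-VEGFA, 0.576, 0.835 and 0.191 CPM in PARPi and 1.07, 0.731 and 1.54 CPM in ICB, against 0.409, 0.437 and 0.694 CPM in control. All 3 groups that received ICB lay above every control library, and the 2 others overlapped control. Its log2 fold change over control was 1.56 ± 0.40 in the triple combination, 1.49 ± 0.42 in PARPi+ICB and 1.11 ± 0.43 in ICB, resting on 13 to 21 counts in each control library.

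Fcer1a was as scarce, at 9 to 75 counts a library. It measured 0.909, 2.68, 1.62 and 0.966 CPM in the triple combination and 1.05, 0.834 and 1.59 CPM in PARPi+ICB. It averaged 0.501 ± 0.192 CPM (SD, n = 4) in PARPi+anti-VEGFA, 0.552 ± 0.320 (n = 3) in PARPi and 0.847 ± 0.341 (n = 3) in ICB, and measured 0.535, 0.672 and 0.827 CPM in control. Both PARPi+ICB groups lay above control, PARPi+ICB by a margin of 0.834 against 0.827 CPM, and the log2 fold changes over control were 1.18 ± 0.45 in the triple combination and 0.77 ± 0.47 in PARPi+ICB.

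Kit, the receptor for stem cell factor, went the other way. It measured 50.9, 43.1, 32.2 and 36.3 CPM in the triple combination and 36.7, 38.2 and 34.1 CPM in PARPi+ICB. It measured 41.2, 49.6, 53.1 and 47.4 CPM in PARPi+anti-VEGFA, 56.1, 58.2 and 52.9 CPM in PARPi and 39.4, 33.4 and 50.6 CPM in ICB, against 51.7, 54.9 and 67.1 CPM in control. All 3 groups that received ICB lay below every control library, and PARPi+anti-VEGFA and PARPi overlapped control. The log2 fold change of Kit over control was -0.51 ± 0.14 in the triple combination, -0.67 ± 0.16 in PARPi+ICB and -0.49 ± 0.16 in ICB. Besides mast cells, Kit is known from blood progenitors, melanocytes, germ cells and the interstitial cells of Cajal in gut muscle. The Cajal cell genes Ano1 and Etv1 were both tested and summed to 102 to 122 CPM in the triple combination, 85.2 to 105 in PARPi+ICB, 108 to 151 in PARPi+anti-VEGFA, 130 to 153 in PARPi and 98.1 to 113 in ICB, against 148 to 176 CPM in control. Ano1 averaged 115 CPM and Etv1 9.44 CPM over all libraries, so the sum was mostly Ano1. In each of the 5 treatments over control, 1 of the 2 had a positive and 1 a negative log2 fold change. Of these 2 genes, 1 passed lower than control in PARPi+ICB and in ICB, 1 passed higher in PARPi+anti-VEGFA, and 1 passed each way in the triple combination. The melanocyte gene Tyrp1 was at 0 counts in every library and the 4 melanocyte genes summed to at most 0.559 CPM. The germ cell genes Ddx4 and Dazl summed to at most 0.586 CPM. Gastric epithelium is not among the Kit-expressing cells named above. Of the 8 gastric epithelial genes, 4 were tested and Atp4b was at 0 throughout. Their sum was 4.48 to 14.8 CPM in the triple combination and 3.37 to 7.07 in PARPi+ICB, against 36.0 to 48.9 CPM in control. It averaged 7.91 CPM in ICB, 11.1 in PARPi+anti-VEGFA and 20.6 in PARPi, and every treatment lay wholly below control. Of the 4 tested, 1 passed lower than control in each PARPi combination and in ICB, and 0 in PARPi. The log2 fold change over control was positive for 2 of the 4 in the triple combination, 0 in PARPi+ICB and 3 in PARPi+anti-VEGFA. It was positive for 2 in PARPi and 3 in ICB, so the tested genes did not fall together. Over all libraries Pgc averaged 13.2 CPM, against 0.876 for Tff2 and 0.491 for Tff1, so the sum was on average mostly Pgc. Tff2 reached 10.6 CPM at its highest. The progenitor genes Cd34 and Flt3 went the other way from Kit and both passed higher than control in the 3 PARPi combinations. Cd34 averaged 62.2 ± 7.65 CPM in the triple combination, 54.1 ± 2.23 in PARPi+ICB and 51.7 ± 9.25 in PARPi+anti-VEGFA, against 38.2 ± 5.24 CPM in control. Flt3 averaged 6.16 ± 0.950, 5.48 ± 1.76 and 6.29 ± 0.622 CPM in these groups, against 2.54 ± 0.496 CPM in control. The part of other Kit-expressing cells in these values was not tested.

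Hdc, which makes histamine from histidine, spanned 1.65-fold between group means, less than any of the proteases and near the 1.59-fold of Kit. It measured 32.4, 31.5, 28.3 and 28.7 CPM in the triple combination, 32.4, 33.5 and 33.0 CPM in PARPi+ICB, 22.7, 23.9, 28.2 and 32.3 CPM in PARPi+anti-VEGFA, 29.8, 30.4 and 30.0 CPM in PARPi and 20.6, 21.7 and 17.8 CPM in ICB, against 22.2, 27.3 and 20.9 CPM in control. The triple combination, PARPi+ICB and PARPi lay above control, and PARPi+anti-VEGFA and ICB overlapped it. Its log2 fold change over control was 0.37 ± 0.11 in the triple combination, 0.49 ± 0.12 in PARPi+ICB, 0.36 ± 0.12 in PARPi and -0.23 ± 0.12 in ICB. Hdc is also made by basophils, myeloid cells and gastric endocrine cells. The basophil genes Mcpt8, Prss34 and Cd200r3, of which only Cd200r3 was tested, summed to 0.448 to 0.841 CPM in the triple combination, 0.611 to 0.865 in PARPi+ICB, 0.118 to 0.529 in PARPi+anti-VEGFA, 0.257 to 0.381 in PARPi and 0.220 to 1.60 in ICB, against 0.364 to 0.567 CPM in control.

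**Figure D1:**
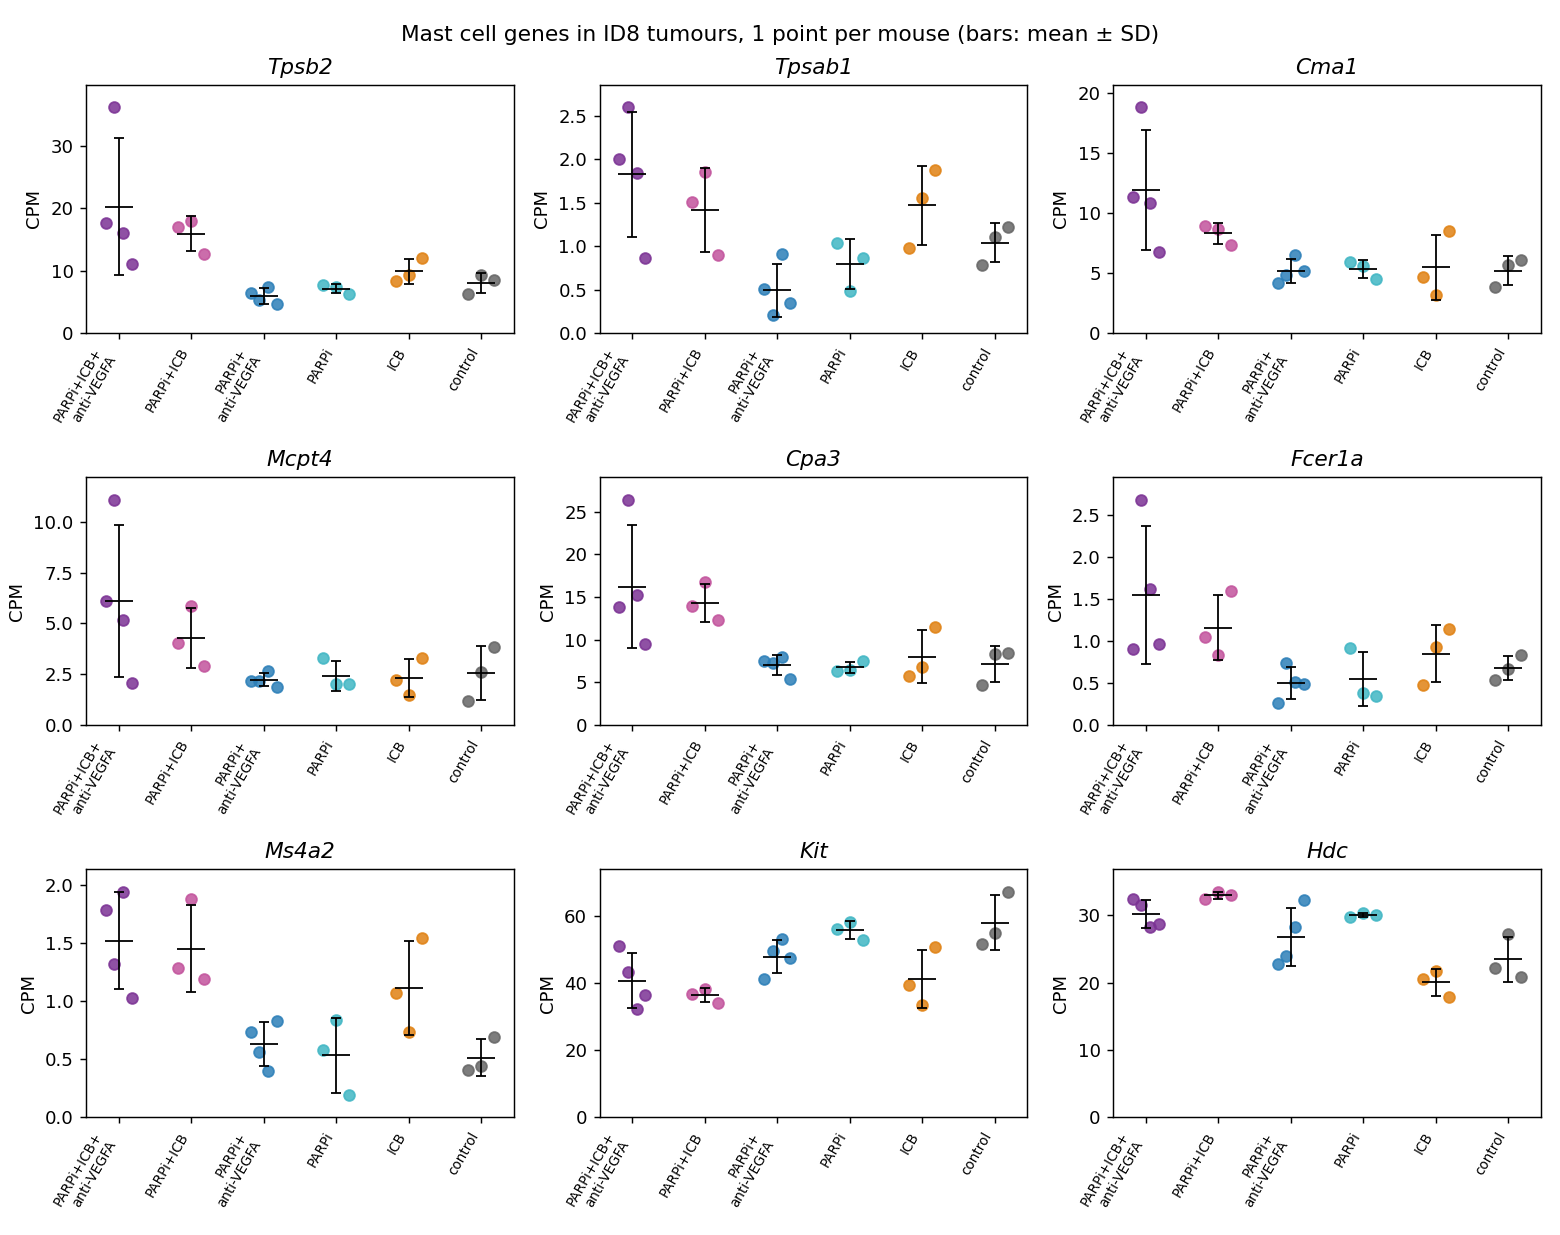
Level of each of the 9 mast cell genes in CPM (vertical axes, linear, from 0) by treatment group, with 1 point per mouse and bars at the group mean ± SD. Tpsb2, Cma1, Mcpt4, Cpa3, Fcer1a and Ms4a2 have their highest means in the 2 groups at the left that combine PARPi with ICB, Tpsab1 is next highest in ICB after the triple combination, replicate 2 of the triple combination is the highest point for 6 genes, and Kit is highest in control.

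Between neighbours in the order of group means, few steps were clear of the spread between mice. For Tpsb2 and Cpa3 the triple combination overlapped PARPi+ICB, a gap without overlap followed between PARPi+ICB and ICB, and the lower 4 groups overlapped their neighbours. For Cma1, Mcpt4, Tpsab1, Fcer1a, Ms4a2 and Kit every step between neighbouring groups overlapped. For Hdc only the top step, PARPi+ICB over the triple combination, had no overlap. Group means spanned 3.43-fold for Tpsb2, 3.74-fold for Tpsab1, 2.96-fold for Ms4a2, 2.41-fold for Cpa3, 1.65-fold for Hdc and 1.59-fold for Kit.

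The choice of the members used their values in all 6 groups, so their calls are given as a description only. In the edgeR quasi-likelihood fit over all genes, 7 of the 9 members passed an adjusted p of 0.05 in the triple combination over control, where 24.2% of all genes did. Of these, Tpsb2, Cma1, Mcpt4, Cpa3, Ms4a2 and Hdc were higher and Kit lower, against 12.6% of all genes higher and 11.5% lower. In PARPi+ICB over control 5 members passed, Tpsb2, Cpa3, Ms4a2 and Hdc higher and Kit lower, where 16.1% of all genes passed, 9.58% higher and 6.52% lower. None passed in PARPi+anti-VEGFA (17.8% of all genes), PARPi (0.0661%) or ICB (2.20%), at 1, 1 and 2 members with an unadjusted p under 0.05. The median log2 fold change of the 9 members over control was 1.18 in the triple combination, 0.74 in PARPi+ICB, -0.20 in PARPi+anti-VEGFA, -0.06 in PARPi and 0.17 in ICB, and the medians over all genes tested lay between -0.02 and 0. These comparisons share the same 3 control tumours. By overlap alone, 6 members lay wholly above control and Kit wholly below it in the triple combination, where 14.9% of all genes lay above and 14.6% below, and likewise 6 above and Kit below in PARPi+ICB, where 17.5% and 17.2% did. In ICB, Ms4a2 lay above and Kit below, against 11.7% and 10.4% of all genes, and in PARPi Hdc lay above, against 11.2%.

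Single libraries moved these counts. Without control replicate 1, which was lowest for Tpsb2, Cma1, Mcpt4 and Cpa3, 3 members passed in the triple combination and 2 in PARPi+ICB. Leaving out control replicate 2 or 3 gave 6 and 5 members in the triple combination and 2 each in PARPi+ICB, and leaving out a PARPi+ICB library gave 2 or 3. Leaving out replicate 2 of the triple combination, which held the highest level of Tpsb2, Tpsab1, Cma1, Mcpt4, Cpa3 and Fcer1a as well as the most acinar RNA, left 6 members past the threshold and lowered the median log2 fold change to 0.82, and Mcpt4 no longer passed, at a log2 fold change of 0.82. Without the 4 libraries with acinar RNA the triple combination over control gave 0.91 for Tpsb2, 0.90 for Cma1, 0.85 for Cpa3, 1.63 for Ms4a2, 0.35 for Hdc and -0.53 for Kit on the log2 scale.

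**Figure D2:**
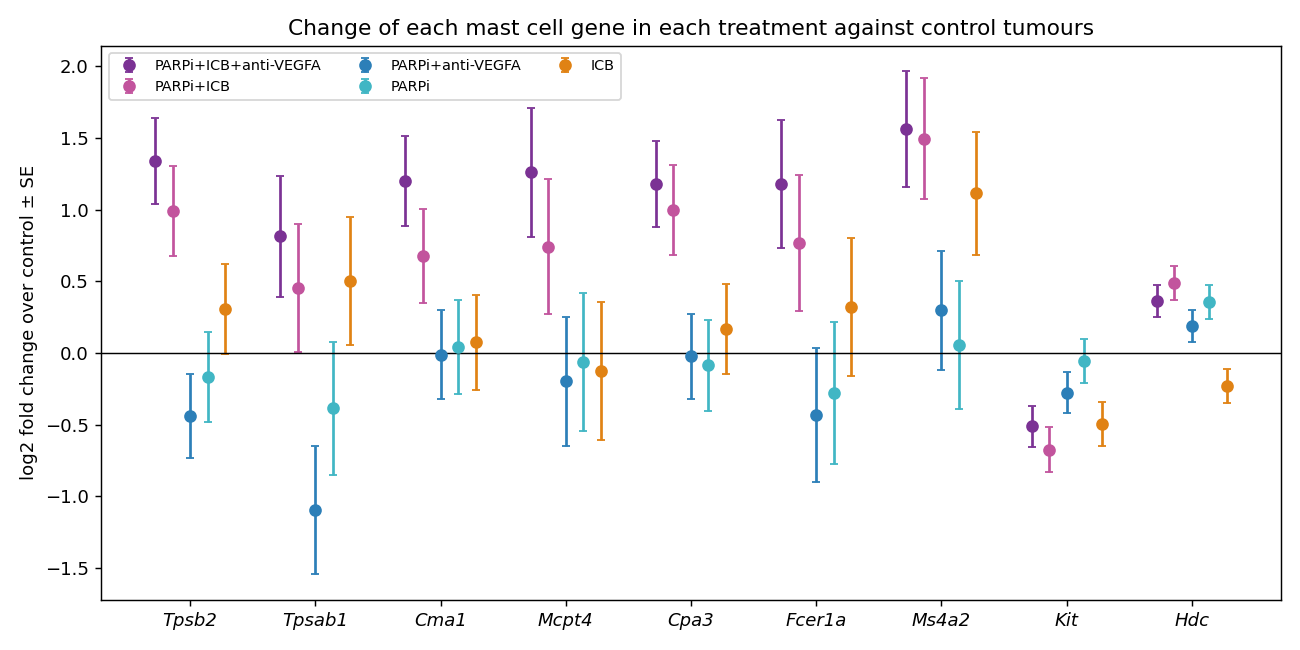
Log2 fold change of each gene over control (vertical axis, points ± SE from the edgeR fit) for the 5 treatments, described without a test because the genes were chosen on these samples. The triple combination and PARPi+ICB lie above 0 for all genes but Kit, and in PARPi+anti-VEGFA all 5 proteases lie below 0, from -1.10 for Tpsab1 to -0.01 for Cma1, as do those in PARPi apart from Cma1 at 0.04.

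Among groups that all received PARPi, the mean of each of the 5 proteases was higher with ICB than without it. Libraries of Tpsab1 and Mcpt4 overlapped in both comparisons. PARPi+ICB over PARPi gave log2 fold changes of 1.16 ± 0.31 for Tpsb2, 1.09 ± 0.31 for Cpa3, 0.64 ± 0.33 for Cma1 and 0.81 ± 0.47 for Mcpt4. Tpsab1 was at 0.836 ± 0.455, Ms4a2 at 1.44 ± 0.42 and Kit at -0.62 ± 0.16. The libraries did not overlap for Tpsb2, Cma1, Cpa3, Ms4a2, Hdc or Kit, a gap seen for 12.3% of all genes upward and 12.1% downward. None of the 9 passed the adjusted threshold, which 1.26% of all genes did, and 5 had an unadjusted p under 0.05. The triple combination over PARPi+anti-VEGFA gave 1.78 ± 0.28 for Tpsb2, 1.91 ± 0.42 for Tpsab1, 1.20 ± 0.27 for Cpa3, 1.21 ± 0.28 for Cma1 and 1.61 ± 0.42 for Fcer1a. In that comparison Mcpt4 was at 1.46 ± 0.41 and Kit at -0.234 ± 0.135, both with overlap. Tpsb2 alone passed there, among 0.0882% of all genes, and 5 members had no overlap between groups, where 3.04% of all genes did not. That call was lost without any 1 of the 4 PARPi+anti-VEGFA libraries or replicate 1 of the triple combination and without the libraries with acinar RNA, where Tpsb2 was at 1.24, while 5 members passed without replicate 4 of the triple combination.

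Adding anti-VEGFA left most members overlapping. PARPi+anti-VEGFA over PARPi ranged from -0.71 ± 0.46 for Tpsab1 to 0.24 ± 0.41 for Ms4a2, every member overlapped between these groups, and 0 passed, where 0.573% of all genes did. The triple combination over PARPi+ICB ranged from -0.13 ± 0.11 for Hdc to 0.52 ± 0.30 for Cma1, with 0 members and 0% of all genes past the threshold. Hdc was the only member there whose libraries did not overlap, at 28.3 to 32.4 CPM in the triple combination against 32.4 to 33.5 CPM in PARPi+ICB, which meet once rounded, and 2.11% of all genes lay wholly below in the same way.

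The sum of the 5 granule proteases and the shares of its parts were set side by side. Their summed level was 56.4 ± 27.5 CPM (SD, n = 4) in the triple combination, 44.2 ± 7.56 (n = 3) in PARPi+ICB, 20.8 ± 3.41 (n = 4) in PARPi+anti-VEGFA, 22.4 ± 1.61 (n = 3) in PARPi and 27.2 ± 8.78 (n = 3) in ICB, against 23.9 ± 6.28 CPM (n = 3) in control. Replicate 2 of the triple combination reached 95.1 CPM and replicate 4 was 30.3 CPM, against 28.0 CPM in the highest control library. Per exon kilobase, Tpsb2 made up 29.2% of the protease RNA over the 20 libraries (22.2 to 38.0%), Cpa3 28.2% (23.2 to 33.2%), Cma1 27.7% (19.1 to 36.4%), Mcpt4 12.5% (8.62 to 16.9%) and Tpsab1 2.39% (0.676 to 4.88%). The share of Tpsb2 was 30.8 ± 2.12% in the triple combination, 31.6 ± 1.16% in PARPi+ICB, 24.1 ± 2.09% in PARPi+anti-VEGFA, 27.3 ± 1.66% in PARPi and 33.1 ± 4.90% in ICB, against 29.5 ± 3.36% in control. PARPi+anti-VEGFA had the lowest share of Tpsb2 and the highest of Cma1, at 31.0 ± 4.50% against 27.8 ± 1.51% in control, and both overlapped control. The Tpsb2 share in PARPi+anti-VEGFA, at 22.2 to 26.7%, lay wholly below that in the triple combination, at 28.4 to 33.1%, and in PARPi+ICB, at 30.8 to 32.9%. The share of Tpsab1 was 1.81 to 2.60% in the triple combination, 1.65 to 2.43% in PARPi+ICB and 0.676 to 2.33% in PARPi+anti-VEGFA, all wholly below the 2.72 to 3.15% in control, while PARPi and ICB overlapped control. These shares were not tested.

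**Figure D3:**
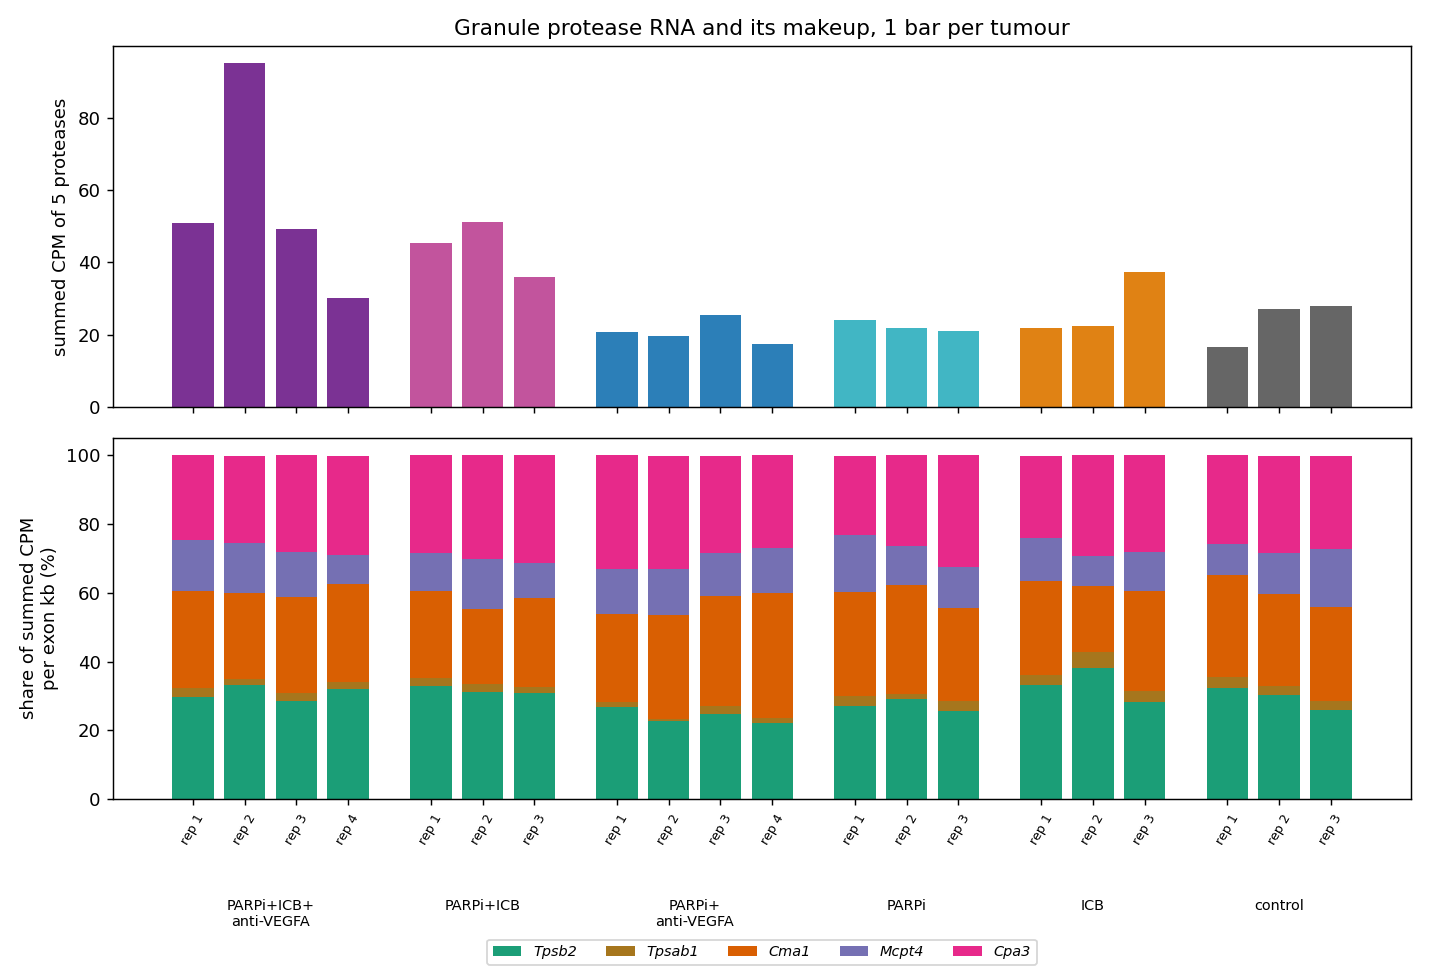
Summed CPM of the 5 granule proteases in each tumour (upper panel, linear from 0) and the share of each protease in their summed CPM per exon kilobase in percent (lower panel), 1 bar per tumour. The sum is highest in replicate 2 of the triple combination at 95.1 CPM, while Tpsb2, Cma1 and Cpa3 make up most of the RNA in every tumour.

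Kit was lower relative to the proteases in all 3 groups with ICB. The ratio of Kit to the summed proteases, both in CPM, was 0.827 ± 0.336 in the triple combination, 0.834 ± 0.100 in PARPi+ICB, 2.33 ± 0.349 in PARPi+anti-VEGFA, 2.49 ± 0.165 in PARPi and 1.55 ± 0.225 in ICB, against 2.51 ± 0.543 in control. The ratio of Hdc to the proteases overlapped control in every treatment, at 0.331 to 0.949 in the triple combination, 0.655 to 0.914 in PARPi+ICB, 1.1 to 1.86 in PARPi+anti-VEGFA, 1.23 to 1.42 in PARPi and 0.477 to 0.973 in ICB, against 0.745 to 1.33 in control. Over the 20 libraries, which share group, depth and tissue makeup, Spearman's rho with the mean log2 level of the other mast cell members was 0.937 for Tpsb2, 0.863 for Cma1, 0.839 for Cpa3, 0.829 for Tpsab1, 0.823 for Mcpt4, 0.734 for Fcer1a and 0.708 for Ms4a2, where the mean left out Kit, Hdc and the gene itself. It was 0.341 for Hdc and -0.376 for Kit. After the mean of each group was taken from its libraries, rho was 0.880 for Cma1, 0.872 for Mcpt4, 0.791 for Tpsb2, 0.747 for Cpa3, 0.653 for Tpsab1 and 0.644 for Kit, and 0.320 for Fcer1a, 0.286 for Ms4a2 and -0.054 for Hdc. For Kit the sign over all libraries was thus opposite to that within groups.

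Genes averaging 1 CPM or more (14623) were ranked over the 20 libraries by Spearman's rho with the mean log2 CPM of the 9 members. Predicted genes without a proper name, and antibody or T cell receptor segments, were passed over when the 10 most alike were picked. Such genes may therefore rank above or among these 10. The most alike of the rest were Hlf at 0.833, Stk38 at 0.830, H19 at 0.818, Nsmce3 at 0.805 and Scml4 at 0.798. Next came Fcf1 at 0.776, Pym1 at 0.771, Lhfpl2 at 0.765, Mcpt1 at 0.764 and Rpl17 at 0.756. Mcpt1 was the single mast cell protease among these 10.

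A wider set of 42 mast cell genes in 7 lists, none of them a member, was tested in the same fit, and 34 passed the filter on low counts. In the triple combination over control 19 of the 34 rose and 1 fell, where 12.6% of all genes rose and 11.5% fell. In PARPi+ICB 18 rose and 0 fell, where 9.58% and 6.52% of all genes did, and in PARPi+anti-VEGFA 13 rose and 2 fell, where 9.99% and 7.80% did. ICB gave 3 that rose, where 2.20% of all genes passed in either direction, and PARPi gave 0 by edgeR, where 0.0661% did, with 8 at an unadjusted p under 0.05 for PARPi and 3 called by DESeq2. The median log2 fold change of the 34 was 0.79 in the triple combination, 0.69 in PARPi+ICB, 0.47 in PARPi+anti-VEGFA, 0.15 in PARPi and 0.17 in ICB.

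The mucosal chymases Mcpt1 and Mcpt2 rose in both groups that combined PARPi with ICB. Mcpt1 ranged from 5.73 to 10.6 CPM in the triple combination, 5.29 to 22.2 in PARPi+ICB, 0.766 to 4.27 in PARPi+anti-VEGFA, 1.08 to 2.02 in PARPi and 4.28 to 6.95 in ICB, against 1.11 to 1.32 CPM in control. All 3 groups with ICB lay wholly above control. The log2 fold change over control was 2.78 ± 0.51 (adjusted p = 0.00107) in the triple combination, 3.60 ± 0.54 (adjusted p = 0.000391) in PARPi+ICB and 2.21 ± 0.53 (adjusted p = 0.0347) in ICB by edgeR. The ICB call was lost without any 1 of the 6 libraries compared, where adjusted p reached 0.120. Mcpt1 was 0.91 ± 0.51 above control in PARPi+anti-VEGFA, with an adjusted p of 0.227. Mcpt2 averaged 13.1 ± 3.16 CPM in the triple combination, 16.3 ± 6.76 in PARPi+ICB, 4.36 ± 1.65 in PARPi+anti-VEGFA, 5.61 ± 0.319 in PARPi and 11.7 ± 2.39 in ICB, against 5.11 ± 1.46 CPM in control (SD, n = 3 or 4). It rose by 1.36 ± 0.31 (adjusted p = 0.00461) in the triple combination and 1.67 ± 0.33 (adjusted p = 0.00239) in PARPi+ICB, and was 1.20 ± 0.33 above control in ICB with an adjusted p of 0.0626. Neither chymase shares a 50-base stretch with another gene. The remaining granule proteases, Mcpt9, Cma2, Tpsg1 and Ctsg, had 29 to 126 counts over all libraries and were not tested.

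With PARPi in both groups, Mcpt1 was 3.11 ± 0.52 (adjusted p = 0.00885) and Mcpt2 1.54 ± 0.33 (adjusted p = 0.0272) higher in PARPi+ICB than in PARPi by edgeR. Slc18a2, Lat, Il1rl1 and Il33 also rose there, so 6 of the 34 wider genes passed, where 1.26% of all genes did. Slc18a2 did not pass without the libraries with acinar RNA, at an adjusted p of 0.0512. Without PARPi replicate 1, 2 or 3 the count was 3, 1 and 1, and without PARPi+ICB replicate 3 it was 2, while Il1rl1, at 2.05 ± 0.31 (adjusted p = 0.00394), passed in all 12 count-based alternatives. Mcpt2 rose by 1.60 ± 0.29 (adjusted p = 0.0419) in the triple combination over PARPi+anti-VEGFA. Calls in the last comparison were few, and Mcpt2 passed in 6 of its 14 count-based alternatives, with adjusted p from 0.000161 to 0.216, and was 1.58 without the libraries with acinar RNA, where it did not pass. Il33 passed in PARPi+anti-VEGFA over PARPi at 0.69 ± 0.15 (adjusted p = 0.0498) and in 3 of 13 such alternatives, not among them the fit without the libraries with acinar RNA, at 0.51, and none of the 34 passed in the triple combination over PARPi+ICB, with 1 at an unadjusted p under 0.05.

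Of the 5 granule amine and proteoglycan genes, Srgn and Slc18a2 rose in both PARPi+ICB groups. Srgn, the core protein of granule proteoglycan that other blood cells also make, averaged 181 ± 41.8 CPM in the triple combination, 188 ± 62.4 in PARPi+ICB and 168 ± 45.2 in PARPi+anti-VEGFA, against 85.9 ± 8.12 CPM in control, with edgeR adjusted p of 0.00271, 0.00373 and 0.00707. Slc18a2, the vesicular transporter that loads histamine and serotonin into granules, averaged 1.06 ± 0.542 CPM in the triple combination and 1.19 ± 0.126 in PARPi+ICB, against 0.379 ± 0.109 CPM in control, with adjusted p of 0.0201 and 0.0190, calls that held in 8 of 13 and 9 of 12 count-based alternatives. Without the libraries with acinar RNA Slc18a2 missed the threshold in the triple combination over control, at 1.37 with an adjusted p of 0.0559. It was 0.498 ± 0.146 CPM in PARPi+anti-VEGFA, with an adjusted p of 0.612. Ndst2 and Hs3st1, which modify heparan chains, and Tph1, which makes serotonin, did not pass in any treatment over control.

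Il1rl1, the receptor for interleukin-33, and Ptger3, a prostaglandin E2 receptor, were the 2 of 5 other mast cell receptor genes that rose in both PARPi+ICB groups. Il1rl1 ranged from 6.17 to 11.3 CPM in the triple combination, 6.80 to 13.3 in PARPi+ICB, 3.18 to 3.82 in PARPi+anti-VEGFA, 1.57 to 2.96 in PARPi and 3.87 to 7.75 in ICB, against 1.76 to 2.49 CPM in control. The edgeR adjusted p was 0.000198 in the triple combination, 0.000384 in PARPi+ICB and 0.0385 in ICB, and 0.121 in PARPi+anti-VEGFA. The ICB call held without ICB replicate 1 and was lost without any other library, with a log2 fold change of 0.87 without ICB replicate 3, so of the 3 calls of ICB over control at most 1 held when a library was left out. Ptger3 was 2.24 ± 0.33 above control in the triple combination, 2.21 ± 0.34 in PARPi+ICB and 1.84 ± 0.32 in PARPi+anti-VEGFA on the log2 scale, with adjusted p of 0.000195, 0.000478 and 0.00137. The receptors Mrgprb1 and Mrgprb2, known from connective tissue mast cells, averaged 0.731 and 0.233 CPM and Adora3 0.817 CPM over all libraries, and none of the 3 passed. Regulatory T cells and innate lymphoid cells also carry Il1rl1.

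IgE receptor signalling genes are shared with macrophages and lymphocytes, and 7 of the 9 rose in each of the 3 PARPi combinations, where 12.6% of all genes rose in the triple combination, 9.58% in PARPi+ICB and 9.99% in PARPi+anti-VEGFA. Syk averaged 74.1 ± 17.6 CPM in the triple combination, 74.0 ± 18.2 in PARPi+ICB and 69.5 ± 7.81 in PARPi+anti-VEGFA, against 30.6 ± 1.18 CPM in control, with edgeR adjusted p of 7.51e-05, 0.0002 and 0.000352. Lat was 1.81 ± 0.19 above control in the triple combination, 1.63 ± 0.20 in PARPi+ICB, 1.26 ± 0.19 in PARPi+anti-VEGFA and 0.89 ± 0.20 in ICB, with adjusted p of 3.25e-05, 0.000138, 0.000578 and 0.0255. The ICB call of Lat held in 5 of 12 count-based alternatives and was lost without the libraries with acinar RNA, at 0.90 with an adjusted p of 0.0639. The others that rose were Fcer1g, Lyn, Lat2, Btk and Rasgrp4, and Plcg1 and Gab2 did not pass. Lyn held in 10 of 13 count-based alternatives in the triple combination, 6 of 12 in PARPi+ICB and 8 of 13 in PARPi+anti-VEGFA, and without the libraries with acinar RNA its adjusted p was 0.0617 in PARPi+ICB and 0.0786 in PARPi+anti-VEGFA. Rasgrp4 held in 9 of 12 and Fcer1g in 11 of 12 in PARPi+ICB. Without PARPi+ICB replicate 3 the log2 fold change in that group was 0.22 for Lyn, against 0.41 with it, 0.61 for Rasgrp4, against 0.97, and 0.32 for Fcer1g, against 0.47, and none of the 3 passed. Among lipid mediator enzymes Ltc4s, Alox5ap and Alox5 rose in both PARPi+ICB groups, and Ltc4s and Alox5ap also in PARPi+anti-VEGFA. Alox5 held in 9 of 13 count-based alternatives in the triple combination and 8 of 12 in PARPi+ICB, where its log2 fold change of 1.43 was 0.91 without PARPi+ICB replicate 3, with an adjusted p of 0.276. Hpgds passed in the triple combination at 0.39 ± 0.11 (adjusted p = 0.0205) and in no other treatment, and Ptgs1 in none. Ltc4s, leukotriene C4 synthase, was 1.90 ± 0.29, 1.83 ± 0.30 and 1.63 ± 0.29 above control in the triple combination, PARPi+ICB and PARPi+anti-VEGFA.

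Of 4 transcription factors of the lineage, Mitf rose by 0.66 ± 0.16 (adjusted p = 0.00548) in the triple combination, 0.89 ± 0.17 (0.00164) in PARPi+ICB and 0.64 ± 0.15 (0.00935) in PARPi+anti-VEGFA by edgeR. Gata1 fell by 0.68 on the log2 scale in PARPi+anti-VEGFA (adjusted p = 0.0335), a call that held in 7 of 13 count-based alternatives and was lost without the libraries with acinar RNA, at -0.56 with an adjusted p of 0.0758, and Gata2 and Tal1 did not pass. Among ligands, Kitl, stem cell factor, averaged 182 ± 12.4 CPM in the triple combination, 195 ± 11.5 in PARPi+ICB and 166 ± 21.1 in PARPi+anti-VEGFA, against 224 ± 25.1 CPM in control. It fell by 0.43 on the log2 scale in PARPi+anti-VEGFA (adjusted p = 0.00871) and by 0.30 in the triple combination (adjusted p = 0.0436), a call that held in 5 of 13. Il33, an alarmin of stroma and epithelium, averaged 55.6 ± 10.3 CPM in the triple combination, 52.9 ± 0.350 in PARPi+ICB and 52.9 ± 7.83 in PARPi+anti-VEGFA, against 26.2 ± 5.33 CPM in control, with adjusted p of 0.000167, 0.000635 and 0.000609. Il3 and Il9 had 0 counts in all 20 libraries, Il4 had 44 and Il13 124 counts in all, and Tslp did not pass.

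**Figure D4:**
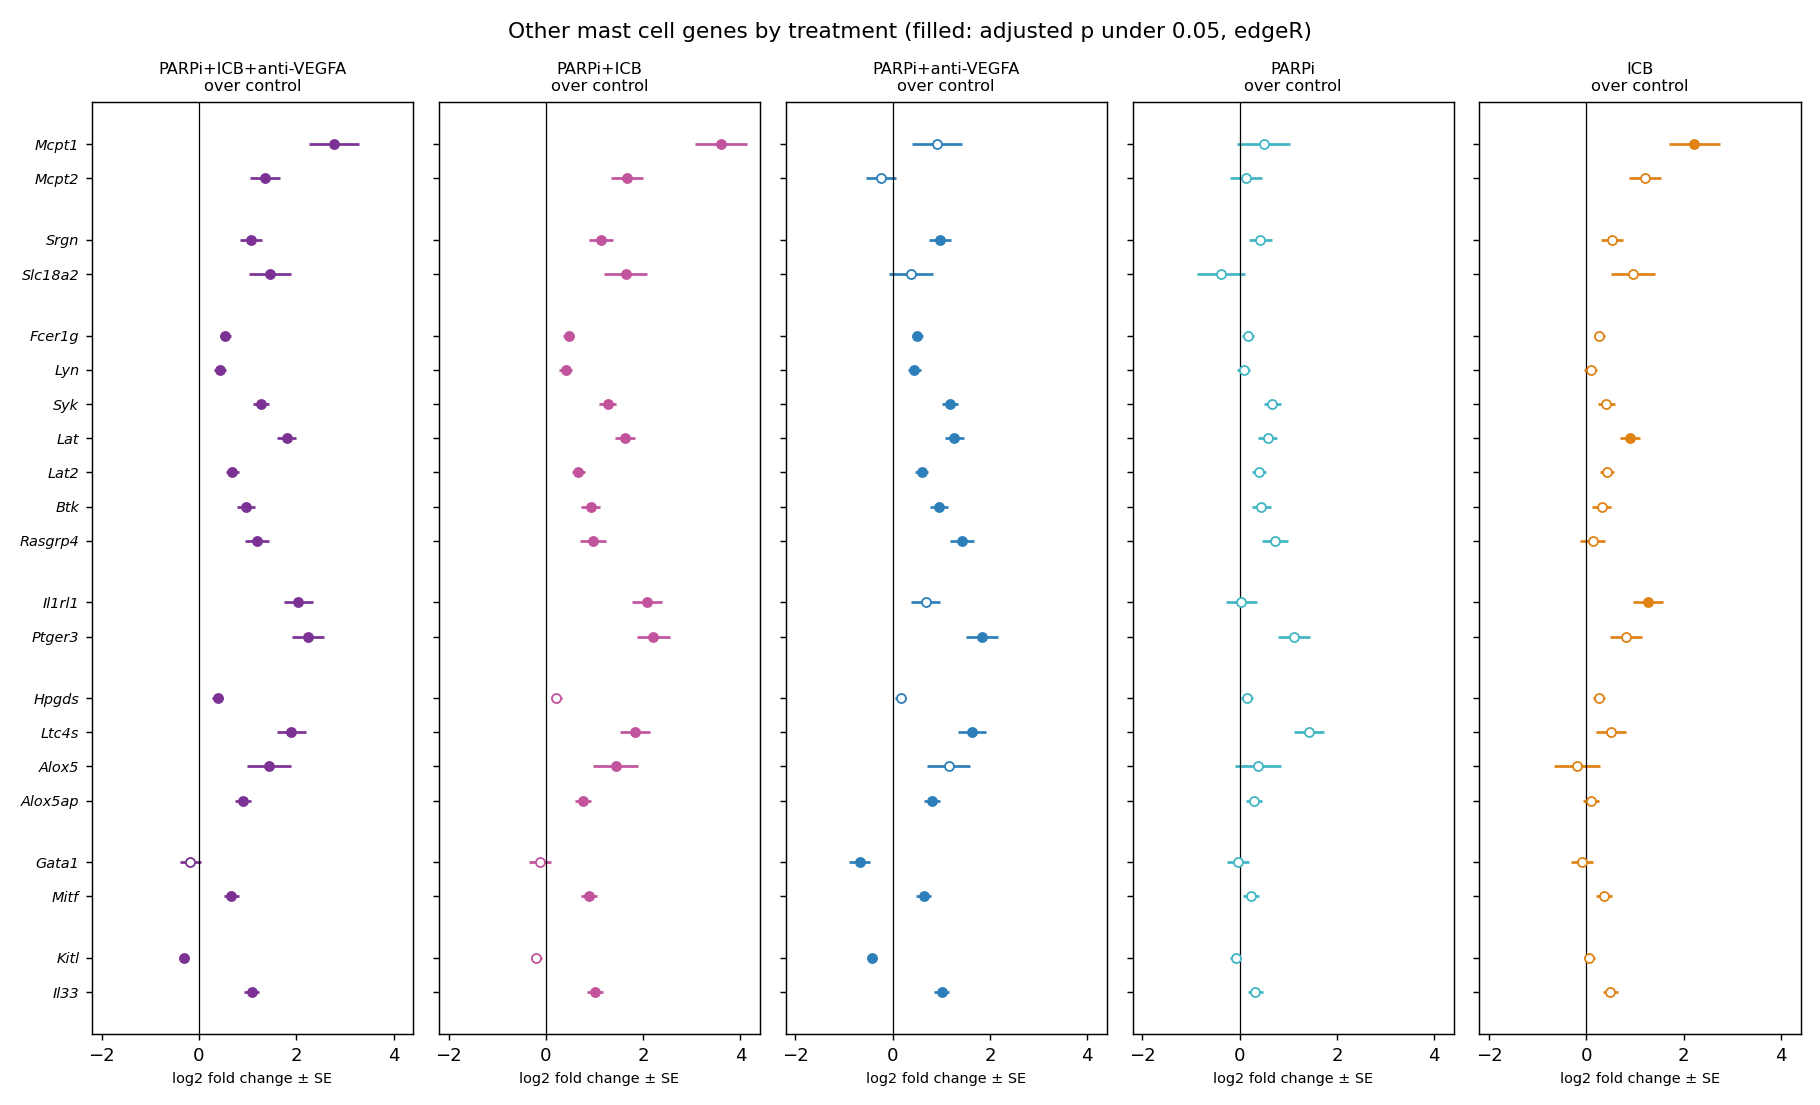
Log2 fold change over control (horizontal axes, points ± SE) of the 21 genes of the wider lists that passed in at least 1 treatment, grouped by list down the page, for the 5 treatments. Filled points have an edgeR adjusted p under 0.05: Mcpt1 is filled in the 3 groups with ICB, and Syk, Lat, Ptger3, Ltc4s and Il33 are filled in the 3 PARPi combinations.

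Genes of other cell types also differed from control, in some lists in the same groups and in others more widely. The 8 adipocyte genes, 7 of them tested, summed to 33.5 to 90.0 CPM in the triple combination, 28.8 to 35.2 in PARPi+ICB, 19.9 to 98.6 in PARPi+anti-VEGFA, 15 to 18.5 in PARPi and 15.9 to 24.0 in ICB, against 16.3 to 17.3 CPM in control. Of the 7, 4 rose in the triple combination, 2 in PARPi+ICB and 4 in PARPi+anti-VEGFA, where 12.6%, 9.58% and 9.99% of all genes rose. The 6 fibroblast genes summed to 3280 to 3940 CPM in the triple combination, 2970 to 3490 in PARPi+ICB, 2730 to 3960 in PARPi+anti-VEGFA, 2360 to 2490 in PARPi and 1760 to 2980 in ICB, against 2210 to 2380 CPM in control, and 5, 3 and 4 of them rose in the first 3 of these groups. Adipose and connective tissue are known sites of mast cells. Both lists were also high in PARPi+anti-VEGFA, where the 5 proteases summed to 17.4 to 25.5 CPM. The part of these tissues in the protease values was not tested. The 8 eosinophil genes, of which 5 were tested, summed to 17.2 to 32.6 CPM in the triple combination, 18.7 to 38.0 in PARPi+ICB and 18 to 22.1 in PARPi+anti-VEGFA. The sum was 15.2 to 20.4 in PARPi and 18.5 to 24.6 in ICB, against 8.06 to 10.7 CPM in control, so every treatment lay above control. Prg2 averaged 13.8 and Ear2 3.88 CPM over all libraries. Epx, Ear1 and Ear6 had 10, 49 and 1 counts in all and were not tested. ICB replicate 3, the highest ICB library for Tpsb2, Cpa3, Cma1 and Mcpt4, also held 45.6 CPM of 6 neutrophil genes, against at most 12.1 CPM in every other library. The 4 mesothelial genes summed to 253 to 388 CPM in the triple combination, 287 to 321 in PARPi+ICB, 291 to 411 in PARPi+anti-VEGFA, 349 to 382 in PARPi and 242 to 318 in ICB, against 386 to 518 CPM in control, and 2 of them fell in each PARPi combination and 1 in ICB, while 1 rose in the triple combination. Of the innate lymphoid cell genes Gata3, Rora, Il17rb and Klrg1, 3 rose in the triple combination, 2 in PARPi+ICB and 1 in PARPi+anti-VEGFA. The RNA quality genes Rn7sk, Lars2 and Mir6236 summed to 55.5 to 153 CPM in the triple combination, 61.6 to 82.0 in PARPi+ICB and 46.5 to 62.3 in PARPi+anti-VEGFA. Their sum was 67.1 to 127 in PARPi and 60.6 to 79.7 in ICB, against 150 to 154 CPM in control. In these 5 groups in turn, 1, 3, 3, 0 and 2 of these genes passed lower. Of all genes, 11.5%, 6.52% and 7.8% passed lower in the 3 PARPi combinations. In PARPi 0.0661% and in ICB 2.2% passed in either direction. The part of tumour content, tissue makeup and RNA quality in the mast cell values was not tested.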

How the data were processed

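Raw counts of reads by gene for 20 tumour RNA libraries were deposited, and STAR, HTSeq and GRCm38 are named in the submitters' processing notes. Libraries were TruSeq stranded and whole-transcriptome per the labels' protocols. Tool versions, annotation and strand setting are not given in the sources used here. The authors also deposited RPKM values, which are on a log2 scale with 1 added, as read from the values against the counts. Checked on 12468 genes, those RPKM values scale with genomic span (99.7% of genes within 5% of 1 factor) and not with exon length (4.5%), so levels between genes were set per exon kb from GENCODE M21, and the RPKM values served only as an alternative.

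Counts were tested in R 4.3.3 with edgeR 4.0.16 (filterByExpr, minimum count 10 and minimum total 15, TMM factors from 0.9581 to 1.028, 1 coefficient per group, quasi-likelihood F test, Benjamini-Hochberg adjustment over 18144 genes, called under an adjusted p of 0.05). SE is the absolute log2 fold change over the square root of F. Genes that failed the filter took 0.0518% of reads or less in each library. Replicates varied more than counting error gives (chi-squared over its degrees of freedom, 20.0 to 144), and p-values measure the spread between mice. On simulated counts of the triple combination over control (17888 genes), 74% of 2-fold and 94% of 4-fold changes were recovered, with 4.55% false calls. The simulation changed far fewer genes than passed in the data, and none of the scarcest. Recovery was not split by level, so these shares need not hold for scarce members. The 9 members, the wider lists, the marker lists and the rule for named genes were chosen with earlier results of these data known. That rule took all members and, per list and comparison, at most 4 called genes by smallest p with the highest and lowest by level. It also took the 10 genes most like the members, after the omissions given with that ranking. Called genes named beyond those 4 were chosen after their values were seen. Alternatives used the size factors of DESeq2, no filter, a replicate block, the Wald test of DESeq2 1.42.0, the compared groups alone, limma 3.58.1 with the authors' log2 RPKM in place of counts, and leaving out each library. A fit without the 4 libraries with acinar RNA (mean log2 CPM above 2) was added after seeing the data. Single-gene results for some listed genes are not reported here.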

Additional observations from a re-analysis of the deposited data

How the results depend on the processing

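No member or wider gene that passed changed direction under any alternative run. Counts of calls moved both between treated groups and over control, and the cause was not tested. For the 34 wider genes, PARPi over control gave 0 calls, and 1 with no filter on low counts, 3 with DESeq2 and 3 with the compared groups alone. ICB over control gave 3, and 6 with DESeq2, 0 with limma on the deposited values, 1 without the libraries with acinar RNA and 0 to 1 with a library left out. PARPi+ICB over PARPi gave 6, and 2 with the compared groups alone and 1 to 5 with a library left out. PARPi+anti-VEGFA over PARPi gave 1, and 0 with the size factors of DESeq2, with the replicate block and with limma, 5 with DESeq2, 2 with the compared groups alone and 0 to 1 with a library left out. The triple combination over PARPi+anti-VEGFA gave 1, and 3 with no filter, 2 with the replicate block, 3 with DESeq2, 0 with limma, 0 without the libraries with acinar RNA and 0 to 2 with a library left out.

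For the 9 members, ICB over control gave 0 calls, and 1 with DESeq2, 1 without the libraries with acinar RNA and 0 to 1 with a library left out. PARPi+ICB over control gave 5, and 2 to 3 with a library left out. PARPi+anti-VEGFA over control gave 0, and 0 to 1 with a library left out. The triple combination over control gave 7, and 3 to 8 with a library left out. PARPi+ICB over PARPi gave 0, and 2 with no filter, 2 with the replicate block, 4 with DESeq2, 3 with the compared groups alone and 3 without the libraries with acinar RNA. The triple combination over PARPi+anti-VEGFA gave 1, and 4 with no filter, 2 with the replicate block, 6 with DESeq2, 0 with the compared groups alone, 0 without the libraries with acinar RNA and 0 to 5 with a library left out. The median member log2 fold change was 0.294 in the triple combination over control, 0.262 in PARPi+ICB over control, 0.264 in PARPi+ICB over PARPi and 0.34 in the triple combination over PARPi+anti-VEGFA by limma, whose values carry 1 added before the logarithm and so compress changes of low genes. With a library left out it ran from -0.353 to 0.112 in PARPi+anti-VEGFA over control and from 0.606 to 1.085 in PARPi+ICB over PARPi.

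Deviations of same-numbered libraries of different groups correlated at -0.316 to 0.244 over 46 pairs, with a median of 0.0157. Pairs with other numbers correlated at -0.304 to 0.394 over 120 pairs, with a median of -0.0125. The labels do not state that replicate numbers pair mice, and a day or batch shared by a number was not tested. The replicate block changed no other count by over 1.5 times. Of the 1107 member values under the alternatives 1033 kept their side of the threshold, 40 lost it and 34 gained it, and of the 870 values of called wider genes 740 kept it and 130 lost it. Depth limits Tpsab1, Fcer1a and Ms4a2, at 6 to 75 counts a library.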
